A study of Saccharomyces cerevisiae with 18 samples.

Results

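The *ATG* genes of *Saccharomyces cerevisiae* encode the core machinery and the cargo receptors of autophagy. The genes described here are those whose symbol in the footprint tables begins with ATG and a number. This rule, which uses no measured value, found 31 genes, all of them present in both the monosome and the disome table, of 6159 genes in either table. In 8 further cases the reference annotation gives an ATG name to a gene that the tables list under another symbol (*VPS30*, which is *ATG6*, and *YLR312C*, which is *ATG39*, among them), and these were kept apart.

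In autophagy, a membrane sac grows at the vacuole, closes around cytoplasm or a chosen cargo, and fuses with the vacuole, where the contents are degraded. The Atg1 kinase complex starts the process, Atg9 vesicles and the lipid-transfer protein Atg2 supply membrane, a PI 3-kinase marks it, and a pair of ubiquitin-like systems attaches Atg8 to its lipid. In yeast growing in rich medium most of this machinery is held back by TORC1, while selective branches, such as the Cvt pathway that carries aminopeptidase I to the vacuole, keep running, and *ATG8* is a textbook example of a gene that is transcribed more strongly on starvation.

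The study used ribosome profiling, which counts the mRNA fragments protected by ribosomes. A lone ribosome gives a monosome footprint, and a ribosome that has run into the one ahead gives, with it, a longer disome footprint, so that many disome reads relative to monosome reads mark places where ribosomes queue. There were 10 monosome libraries (wild type 3, *hel2*Δ 2, *ncs2*Δ*elp6*Δ 3, *ncs2*Δ*elp6*Δ*hel2*Δ 2) and 8 disome libraries (2 per strain), all from strains of the BY4741 background grown in YPD to mid-exponential phase at 30 °C. *NCS2* and *ELP6* act in the pathways that modify the wobble uridine of tRNAs (thiolation by the Urm1 pathway and the mcm5 and ncm5 side chains made through Elongator), and *HEL2* encodes the ubiquitin ligase that recognises collided ribosomes.

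The labels give all strains as MATa with the *his3*Δ1, *leu2*Δ0 and *ura3*Δ0 alleles, and state met15Δ0 only for the wild type. *HEL2* was replaced by *LEU2*, *NCS2* by HIS3MX and *ELP6* by *URA3*, so that the strains also differ in which marker they carry. The study calls its replicates biological, and the labels do not say whether they were separate cultures.

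Monosome totals were 11702547 to 24884873 counts in the strains with *HEL2* and 2381991 to 4352295 in the strains without it, and disome totals were 845707 to 2521397. Monosome depth therefore cannot be told apart from the *HEL2* genotype. The triple mutant and *hel2*Δ overlapped in depth. Every *ncs2*Δ*elp6*Δ monosome library was deeper than every wild-type one (13791038 to 24884873 against 11702547 to 13710907 counts). The *ncs2*Δ*elp6*Δ disome libraries were shallower than those of the wild type (845707 and 1121126 against 1701590 and 1693501 counts). Depth therefore went with genotype in that comparison too. The deleted genes had the low counts their labels ask for, with 4 to 6 *HEL2* counts in the *hel2*Δ monosome libraries against 880 to 1251 in the wild type, and 11 to 26 *NCS2* and 0 to 2 *ELP6* counts in *ncs2*Δ*elp6*Δ against at least 189 and 192 in the wild type. The 5 MATa marker genes summed to 654.9 to 1414 CPM (a gene's share of the library total, scaled to 1000000 counts) in the monosome libraries and the 4 MATα marker genes to 1.436 to 3.978.

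The *ATG* genes gave few footprints. They took 0.0345% to 0.0606% of the monosome counts of a library and 0.0405% to 0.0657% of the disome counts. A monosome library held 1309 to 12182 *ATG* counts and a disome library 440 to 1020. Per kilobase of gene, the median wild-type monosome level was 5.97 CPM over the 31 genes and 21.2 CPM over the 5716 genes with an annotated length, and 29 of the 31 genes lay below the latter value. The exceptions were *ATG27*, a membrane protein of Atg9 vesicles (68.1 CPM per kb), and *ATG8* (41.7 CPM per kb). *ATG33*, *ATG18* and *ATG20* followed with 20.01, 16.6 and 15.1 CPM per kb. *ATG14*, which encodes the autophagy-specific subunit of the PI 3-kinase (1.77 CPM per kb), *ATG10*, the Atg12-conjugating enzyme (2.19 CPM per kb), and the mitophagy receptor gene *ATG32* (2.35 CPM per kb) were lowest.

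Disome counts were lower still. Summed over the 8 disome libraries, 17 of the 31 genes had more than 100 counts and 10 had fewer than 50. In 7 genes no disome library reached 10 counts, and 8 had a disome library with no count at all. *ATG18*, whose product binds PI3P, had the most, with 142 and 218 disome counts in the wild type, 67 and 174 in *hel2*Δ, 105 and 137 in *ncs2*Δ*elp6*Δ, and 132 and 178 in the triple mutant. Its log2 ratio of disome to monosome CPM (with a prior count of 2) was 2.03 ± 0.25 (SD, n = 2) in the wild type, above that of 97.99% of genes, and stayed between 1.35 and 1.76 in the mutants. The median of this ratio over the 31 genes in the wild type was 0.07, and over all 5221 genes with at least 10 disome reads it was -0.24. *ATG13*, *ATG11* and *ATG32* followed *ATG18* with 1.27 ± 0.93, 1.22 ± 0.15 and 1.12 ± 0.09 (SD, n = 2), the value of *ATG13* resting on unlike replicates (1.93 and 0.62). Low counts at *ATG14* (0 and 0 wild-type disome counts) gave the lowest ratio, -2.75.

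**Figure D1:**
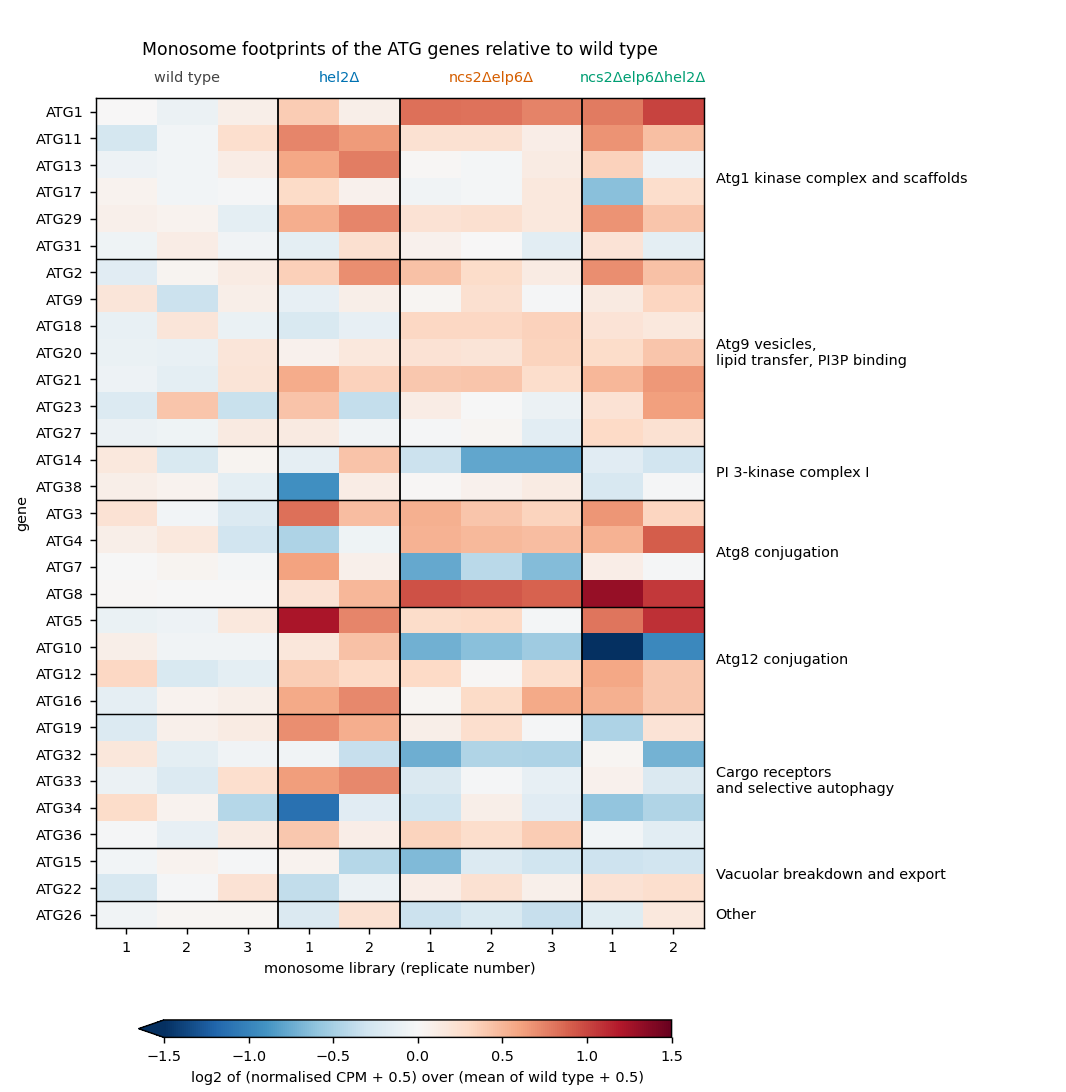
Monosome level of the 31 *ATG* genes in each of the 10 libraries, as log2 of the normalised CPM over the wild-type mean (0.5 CPM added to both; colours end at -1.5 and 1.5), with genes in rows grouped by role and libraries in columns grouped by strain. *ATG8* and *ATG1* are higher in every library of the strains without *NCS2* and *ELP6* than in the wild type, and the Atg1-complex genes *ATG13* and *ATG11* are higher in both *hel2*Δ libraries.

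*ATG8*, *ATG1* and *ATG4* were called higher in monosome counts on loss of *NCS2* and *ELP6*, with and without *HEL2*. Without *HEL2*, only *ATG8* kept its call in an alternative test, the DESeq2 Wald test. In *ncs2*Δ*elp6*Δ against wild type, 7 of the 31 genes rose and 6 fell at an adjusted p under 0.05 in edgeR's quasi-likelihood test, where 26.6% of the 5281 genes tested rose and 26.4% fell. The median log2 change was 0.11 over the *ATG* genes and 0.02 over all genes. A footprint count combines how much mRNA there is with how many ribosomes each mRNA carries, and these cannot be told apart here. All levels below are monosome CPM normalised by TMM unless stated otherwise, and log2 changes come from the fit with their standard error (SE). Where groups of libraries are said not to overlap, this describes genes that were already called and is not further support. The share of all genes without overlap was not counted.

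*ATG8* (chromosome II, 80378 to 80731), the ubiquitin-like protein that is joined to the autophagosomal membrane, was at 17.1, 17.0 and 16.9 in the wild type and at 33.5, 32.9 and 31.8 in *ncs2*Δ*elp6*Δ. The groups did not overlap, and the log2 change was 0.94 (SE 0.09, adjusted p = 7.76e-07). In *hel2*Δ it was at 19.9 and 24.2 and in the triple mutant at 42.7 and 36.1, a log2 change of 0.80 (SE 0.17, adjusted p = 7.31e-05). *ATG8* therefore had its highest level in the triple mutant, although the effect of *HEL2* loss on it missed the threshold in both backgrounds (log2 0.40, SE 0.16, adjusted p = 0.058 against wild type; log2 0.25, SE 0.11, adjusted p = 0.122 against *ncs2*Δ*elp6*Δ).

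*ATG1* (chromosome VII, 160065 to 162758) encodes the kinase that starts autophagy. Its level was 17.0, 15.9 and 18.0 in the wild type and 30.5, 30.1 and 28.7 in *ncs2*Δ*elp6*Δ (log2 0.80, SE 0.10, adjusted p = 6.69e-06), and it was 22.1 and 18.0 in *hel2*Δ and 29.5 and 34.6 in the triple mutant (log2 0.73, SE 0.17, adjusted p = 0.000502). Again no library of a strain without *NCS2* and *ELP6* overlapped with its control. In the strains without *HEL2* the call was lost without *hel2*Δ replicate 2 (log2 0.56, adjusted p = 0.0627).

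The other enzymes of Atg8 conjugation did not move as one. *ATG4* encodes the protease that trims Atg8 and later releases it from the lipid. It was at 7.97, 8.39 and 6.001 in the wild type, 10.9, 10.6 and 10.4 in *ncs2*Δ*elp6*Δ, 5.25 and 7.08 in *hel2*Δ and 10.9 and 14.5 in the triple mutant. It rose in both comparisons without overlap (log2 0.52, SE 0.14, adjusted p = 0.00571; log2 1.06, SE 0.27, adjusted p = 0.000912), the second being lost without triple mutant replicate 2 (log2 0.80, adjusted p = 0.062). *ATG3*, the enzyme that transfers Atg8 to the lipid, rose against the wild type (14.4, 11.9 and 10.5 against 18.0, 16.5 and 15.6; log2 0.44, SE 0.13, adjusted p = 0.00738). *ATG7*, the activating enzyme of both ubiquitin-like systems, fell in the same comparison, from 8.43, 8.69 and 8.27 to 4.75, 6.29 and 5.22 (log2 -0.66, SE 0.15, adjusted p = 0.00197). Neither passed in the triple mutant against *hel2*Δ, and the difference between these comparisons missed the threshold for both (*ATG3* adjusted p = 0.148, *ATG7* adjusted p = 0.566).

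Of the remaining groups in *ncs2*Δ*elp6*Δ, 3 of the 7 genes for Atg9 vesicles, lipid transfer and PI3P binding rose (*ATG2*, *ATG18* and *ATG21*, log2 0.29 to 0.36). *ATG9* itself, a membrane-spanning lipid scramblase, was at 13.99, 9.70 and 13.1 in the wild type, 12.5, 14.5 and 12.1 in *ncs2*Δ*elp6*Δ, 11.3 and 13.1 in *hel2*Δ and 13.5 and 15.5 in the triple mutant, and passed the test in none of the 4 comparisons (log2 0.01 to 0.27). *ATG14* was lower, with 2.41, 1.72 and 2.19 in the wild type against 1.58, 1.02 and 1.01 (log2 -0.77, SE 0.29, adjusted p = 0.0354). These levels rest on 14 to 41 counts a library, and leaving out any of 4 of the 6 libraries (wild type 1 or 3, *ncs2*Δ*elp6*Δ 2 or 3) lifted the adjusted p to between 0.0842 and 0.119, with log2 values of -0.73 to -0.65.

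*ATG32* was at 4.91, 3.84 and 4.14 in the wild type and at 2.39, 3.01 and 2.97 in *ncs2*Δ*elp6*Δ (log2 -0.65, SE 0.20, adjusted p = 0.0141). *ATG15*, the vacuolar lipase that opens autophagic bodies, was at 13.3, 14.3 and 13.6 against 8.49, 11.9 and 11.1 (log2 -0.41, SE 0.14, adjusted p = 0.0171). In both genes every mutant library was below every wild-type library. The call was lost for *ATG32* without wild type replicate 1 (log2 -0.55, adjusted p = 0.0568) or *ncs2*Δ*elp6*Δ replicate 1 (log2 -0.53, adjusted p = 0.0864), and for *ATG15* without wild type replicate 2 (log2 -0.39, adjusted p = 0.059) or *ncs2*Δ*elp6*Δ replicate 1 (log2 -0.26, adjusted p = 0.132). *ATG10* and the sterol glucosyltransferase gene *ATG26* completed the 6 that fell. *ATG10* had no more than 15 counts in any library. It passed the filter on low counts only through the wild type, the group where it is higher, so its fall is not read as a result.

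In the triple mutant against *hel2*Δ, 3 of 29 genes tested rose (*ATG4*, *ATG8* and *ATG1*) and 3 fell, beside 22.5% and 21.7% of all 5027 genes. Those that fell were *ATG33*, *ATG19* and *ATG13*, of which *ATG33* and *ATG19* belong to the 5 genes for cargo receptors and selective autophagy (median log2 change -0.39). In *ncs2*Δ*elp6*Δ against wild type that group had 2 positive and 3 negative values. *ATG33*, a mitochondrial protein of mitophagy, went from 21.4 and 22.9 to 14.2 and 11.6 (log2 -0.81, SE 0.20, adjusted p = 0.000685). *ATG19*, the Cvt receptor for aminopeptidase I, went from 20.3 and 18.2 to 8.75 and 14.3 (log2 -0.64, SE 0.22, adjusted p = 0.012). *ATG13*, the regulatory subunit of the Atg1 kinase and a direct target of TORC1, went from 22.5 and 25.6 to 19.0 and 14.1 (log2 -0.60, SE 0.19, adjusted p = 0.00824).

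For these 3 genes the levels in the triple mutant overlapped those of the wild type and of *ncs2*Δ*elp6*Δ, and both *hel2*Δ libraries lay above all other libraries. The same *hel2*Δ libraries also enter *hel2*Δ against wild type, so the calls in these comparisons are not independent. The *ATG19* call was lost without *hel2*Δ replicate 1 (log2 -0.59, adjusted p = 0.0862) or triple mutant replicate 1 (log2 -0.42, adjusted p = 0.121), and that of *ATG13* without *hel2*Δ replicate 2 (log2 -0.49, adjusted p = 0.157) or triple mutant replicate 2 (log2 -0.34, adjusted p = 0.265). With the DESeq2 Wald test only *ATG8* of the 6 kept its call (adjusted p = 0.0136).

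The comparisons with and without *HEL2* share no library. Of the 29 genes tested in both, 19 (65.52%) changed in the same direction, and the share over all 5025 genes was 75.46%. *ATG1*, *ATG4* and *ATG8* were called higher in both, none was called lower in both, and none was called in opposite directions. Of all 5025 genes, 794 were called higher in both, 811 lower in both and 51 in opposite directions. Across the 29 genes, which are not independent replicates, the log2 changes had a Pearson r of 0.52, against 0.79 across all genes.

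**Figure D2:**
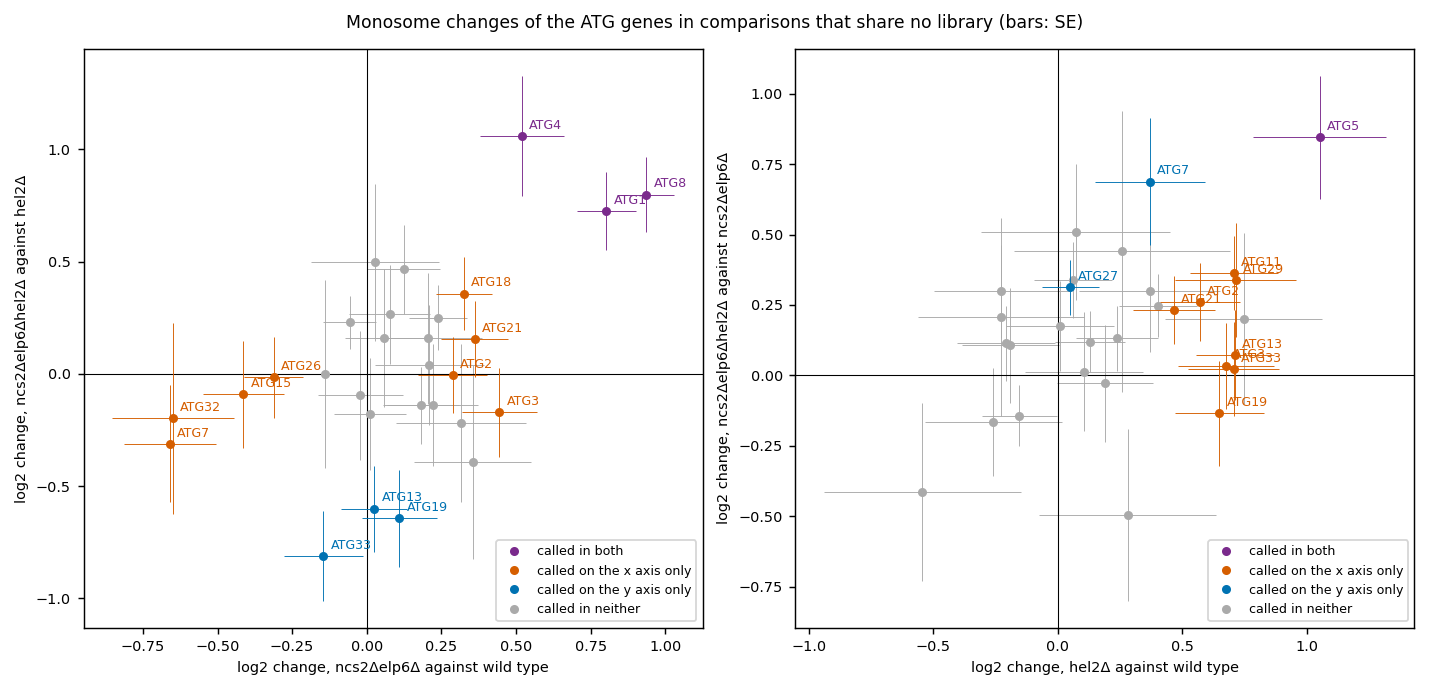
Log2 changes in monosome counts of each *ATG* gene in pairs of comparisons that share no library, with labels at genes called in at least 1 of them, on the left loss of *NCS2* and *ELP6* where *HEL2* is present (horizontal) and absent (vertical), on the right loss of *HEL2* where *NCS2* and *ELP6* are present (horizontal) and absent (vertical), and bars give 1 SE. *ATG8*, *ATG1* and *ATG4* lie to the upper right on the left side. On the right side 20 of 30 genes lie above 0 on both axes, beside 1867 of all 5199 genes. *ATG10* and *ATG14* were not tested in the triple mutant against *hel2*Δ.

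The *ATG* genes called on loss of *HEL2* all had higher monosome counts, though most of the 31 passed in neither background. In the absence of *NCS2* and *ELP6* the share that rose was close to that of all genes. In *hel2*Δ against wild type 9 of the 31 genes rose and none fell, beside 14.7% and 17.2% of all 5225 genes, and 24 of the 31 log2 changes were positive (52.38% of all genes). The median log2 change was 0.26 over the *ATG* genes and 0.03 over all genes. In the triple mutant against *ncs2*Δ*elp6*Δ 3 of 30 genes rose and none fell, beside 12.0% and 12.2% of all 5318 genes, and 24 of 30 log2 changes were positive (50.66% of all genes), with a median of 0.19. Since *HEL2* genotype and monosome depth go together, the first of these counts was also taken after all libraries were thinned to the same total. This left 4 genes called (*ATG11*, *ATG13*, *ATG19* and *ATG33*). The count also dropped when either *hel2*Δ library was left out. The share of all genes called in these fits is not given here, so no excess over all genes is read from them.

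The comparisons on loss of *HEL2* in the 2 backgrounds share no library. Of the 30 *ATG* genes tested in both, 23 (76.67%) changed in the same direction, beside 68.61% of all 5199 genes. Pearson r was 0.38 across the *ATG* genes and 0.50 across all genes. Of all genes, 290 were called higher in both, 380 lower in both and 24 in opposite directions. *ATG5* was the 1 *ATG* gene called in both. Atg5 is the protein to which Atg12 is joined, and the conjugate helps to place Atg8 on the membrane. It was at 4.08, 4.15 and 4.95 in the wild type and 10.9 and 7.62 in *hel2*Δ (log2 1.05, SE 0.27, adjusted p = 0.00641), and at 5.44, 5.53 and 4.28 in *ncs2*Δ*elp6*Δ and 8.02 and 9.98 in the triple mutant (log2 0.84, SE 0.22, adjusted p = 0.0106). All 4 libraries without *HEL2* were above all 6 with it. The first call was lost without *hel2*Δ replicate 1 (log2 0.80, adjusted p = 0.142) and after thinning (log2 0.75, adjusted p = 0.12), and the second without triple mutant replicate 2 (log2 0.64, adjusted p = 0.248) and after thinning (log2 0.78, adjusted p = 0.066). The other genes of Atg12 conjugation, *ATG12*, *ATG10* and *ATG16*, also had positive log2 changes in *hel2*Δ against wild type (median of the 4 genes 0.60), but only *ATG5* passed the test.

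In *hel2*Δ against wild type the Atg1 complex contributed 3 of the 9 genes, and its 6 genes all had positive log2 changes (median 0.47). *ATG13* was at 14.1, 14.5 and 16.1 in the wild type and 22.5 and 25.6 in *hel2*Δ (log2 0.71, SE 0.16, adjusted p = 0.00249). *ATG11*, the scaffold of selective autophagy, was at 13.99, 16.5 and 20.3 against 28.5 and 26.7 (log2 0.71, SE 0.18, adjusted p = 0.00541), and *ATG29*, a subunit of the starvation scaffold, at 5.84, 5.76 and 4.95 against 8.25 and 9.53 (log2 0.71, SE 0.24, adjusted p = 0.0328). The groups did not overlap in any of the 3 genes, which were picked by their call.

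The call was lost for *ATG13* without *hel2*Δ replicate 2 (log2 0.60, adjusted p = 0.098), for *ATG11* without *hel2*Δ replicate 1 or 2 (log2 0.67 and 0.76, adjusted p = 0.088 and 0.0763), and for *ATG29* without wild type replicate 2 or *hel2*Δ replicate 1 or 2 (log2 0.59 to 0.80, adjusted p = 0.0625 to 0.285). *ATG17*, the scaffold that recruits the Atg1 complex on starvation, was at 11.4, 10.6 and 10.8 in the wild type, 13.5 and 11.4 in *hel2*Δ, 10.5, 10.7 and 12.2 in *ncs2*Δ*elp6*Δ, and 6.93 and 13.2 in the triple mutant, and no monosome comparison of it passed the test. The other genes called in *hel2*Δ were *ATG33*, *ATG3*, *ATG19*, *ATG2* and *ATG21*, with log2 changes of 0.47 to 0.71.

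In the triple mutant against *ncs2*Δ*elp6*Δ, *ATG7* rose from 4.75, 6.29 and 5.22 to 9.12 and 8.35 (log2 0.69, SE 0.22, adjusted p = 0.0353), beside 8.27 to 8.69 in the wild type. Its fall in *ncs2*Δ*elp6*Δ against wild type used the same *ncs2*Δ*elp6*Δ libraries, so the fall and the rise are not independent. *ATG27* rose from 62.9, 65.4 and 57.0 to 78.4 and 75.2 (log2 0.31, SE 0.10, adjusted p = 0.0293). Both calls depended on single libraries: that of *ATG7* was lost without *ncs2*Δ*elp6*Δ replicate 1 or either triple mutant library (log2 0.58 to 0.77, adjusted p = 0.0919 to 0.172), and that of *ATG27* without *ncs2*Δ*elp6*Δ replicate 1 or 3 or either triple mutant library (log2 0.26 to 0.35, adjusted p = 0.0502 to 0.153).

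When the difference of the *HEL2* effect between the backgrounds was tested directly, none of the 31 *ATG* genes passed in edgeR (4 had an unadjusted p under 0.05) or in DESeq2 (12 of them received an adjusted p), beside 2.99% of 5354 genes with a higher and 2.30% with a lower effect of *HEL2* loss in the absence of *NCS2* and *ELP6*. The genes that stood highest in *hel2*Δ had negative differences that missed the threshold (*ATG19* log2 -0.78, SE 0.26, adjusted p = 0.0906; *ATG13* log2 -0.63, SE 0.22, adjusted p = 0.0968). Leaving out wild type replicate 3 brought 3 *ATG* genes below the threshold, all with a negative difference. How many of all genes passed in that fit is not given here.

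**Figure D3:**
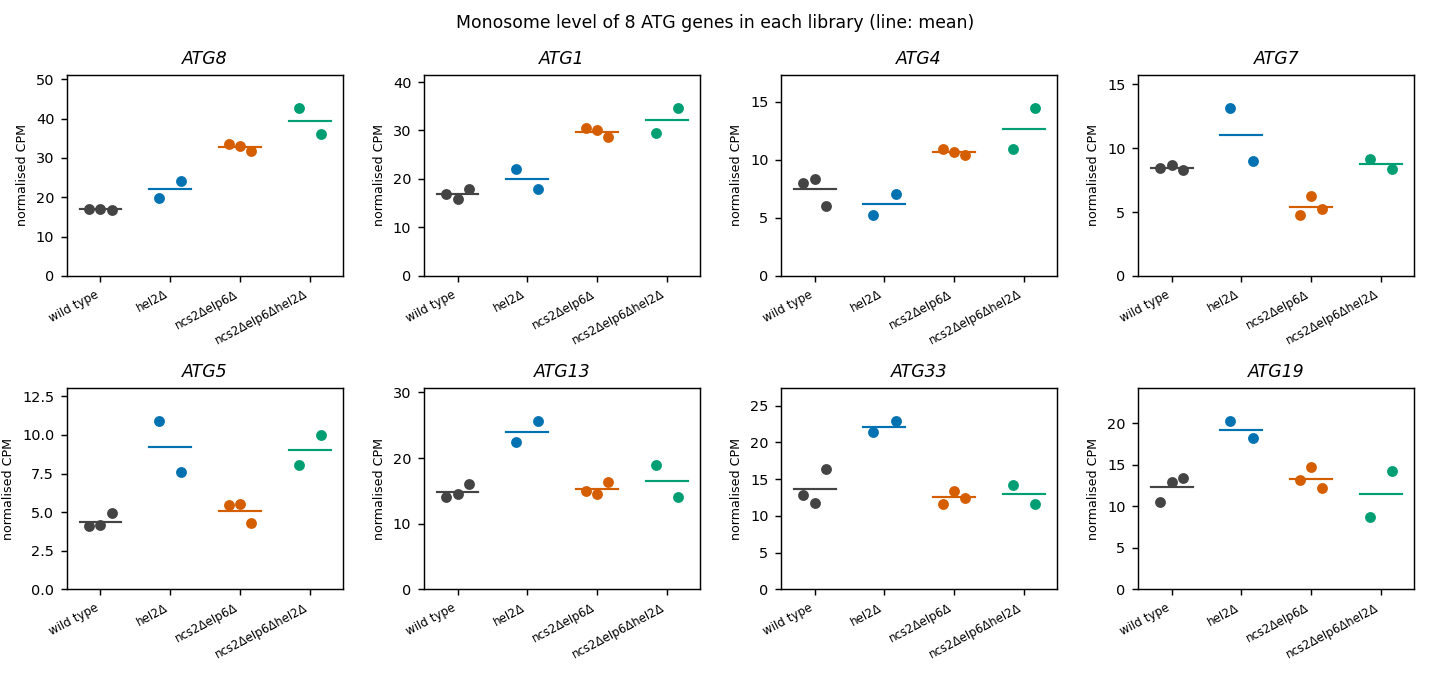
Normalised monosome CPM of 8 *ATG* genes in each library (points) with the mean of each strain (line). *ATG8*, *ATG1* and *ATG4* are highest in the strains that lack *NCS2* and *ELP6*, *ATG7* is lowest in *ncs2*Δ*elp6*Δ, *ATG5* is higher in both strains that lack *HEL2*, and *ATG13*, *ATG33* and *ATG19* are highest in *hel2*Δ.

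Disome enrichment was tested as the interaction of library type with genotype, that is, whether disome counts changed more or less than monosome counts of the same gene. In *ncs2*Δ*elp6*Δ against wild type, *ATG17* was enriched and *ATG5* was depleted among the 31 genes, beside 10.0% of all 5389 genes enriched and 8.68% depleted. *ATG17* (chromosome XII, 971917 to 973170) had 32 and 23 disome counts in the wild type and 37 and 50 in *ncs2*Δ*elp6*Δ, or 20.8 and 16.1 against 40.3 and 40.8 as normalised CPM. With an even monosome level, its log2 disome enrichment was 1.15 (SE 0.28, adjusted p = 0.00726), and the disome counts alone differed as well (log2 1.10, SE 0.28, adjusted p = 0.0183). Its enrichment was called in every one of the fits that left out a library.

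*ATG11*, the other large scaffold, showed 45 and 60 disome counts in the wild type against 60 and 84 in *ncs2*Δ*elp6*Δ (29.2 and 42.0 against 65.4 and 68.6 normalised CPM). Its disome counts alone rose (log2 0.89, SE 0.24, adjusted p = 0.0218), whereas its enrichment over monosomes missed the threshold (log2 0.76, SE 0.27, adjusted p = 0.0606). *ATG1* likewise gained disome counts, from 18 and 16 to 34 and 29 (log2 1.35, SE 0.36, adjusted p = 0.0222), but its monosome counts rose too and the enrichment was 0.59 (SE 0.32, adjusted p = 0.22). *ATG8* had 27 and 27 disome counts in the wild type against 26 and 31 in *ncs2*Δ*elp6*Δ, whose disome libraries were shallower, or 17.5 and 18.9 against 28.3 and 25.3 normalised CPM. Its disome counts alone did not pass (log2 0.52, SE 0.31, adjusted p = 0.24), nor did its enrichment (log2 -0.36, SE 0.26, adjusted p = 0.388).

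None of 28 *ATG* genes passed the enrichment test in the triple mutant against *hel2*Δ, beside 4.57% of 5030 genes enriched and 4.51% depleted. In edgeR 3 had an unadjusted p under 0.05, and DESeq2's likelihood-ratio test called 0 of the 5 to which it gave an adjusted p. *ATG17* had 21 and 53 disome counts in *hel2*Δ and 13 and 26 in the triple mutant, with an enrichment of -0.43 (SE 0.46, adjusted p = 0.627). The lowest adjusted p among the always-named genes was that of *ATG8*, whose enrichment was -1.08 (SE 0.36, adjusted p = 0.0643) on 16 and 55 against 22 and 25 disome counts. *ATG1*, *ATG9* and *ATG13* lay between -0.03 and 0.05 in this comparison. The enrichment changes on loss of *NCS2* and *ELP6* with and without *HEL2*, from comparisons that share no library, had the same sign in 13 of 28 genes (46.43%) and in 60.71% of all genes, with a Pearson r of -0.26 and 0.24.

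**Figure D4:**
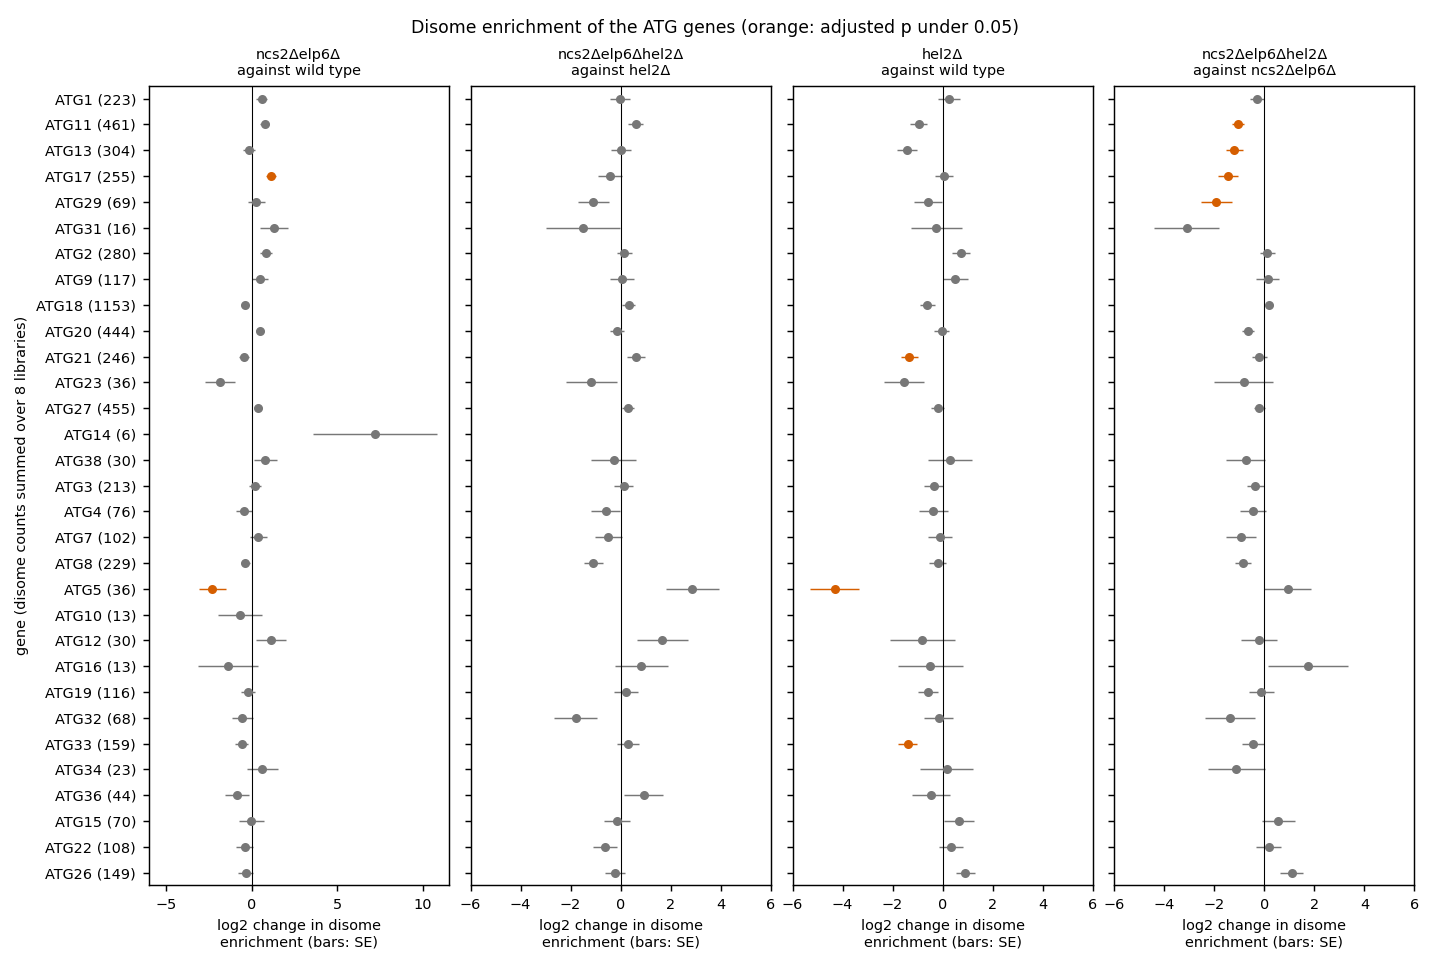
Log2 change in disome enrichment of each *ATG* gene in the 4 comparisons, with 1 SE on either side and disome counts summed over the 8 libraries in parentheses; orange points passed the test, genes without a point were not tested, and the first panel has a wider axis. *ATG17* is the orange point above 0 in *ncs2*Δ*elp6*Δ against wild type, and *ATG17*, *ATG13*, *ATG11* and *ATG29* are orange below 0 in the triple mutant against *ncs2*Δ*elp6*Δ.

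The *ATG* genes whose disome enrichment was called on loss of *HEL2* were all depleted. In the triple mutant against *ncs2*Δ*elp6*Δ 4 of 28 genes were depleted and none enriched, beside 8.17% and 8.95% of all 5017 genes, and the median over the *ATG* genes was -0.42 with 8 positive values, against 0.00 over all genes. All 4 encode parts of the Atg1 complex and its scaffolds. The 6 genes of that group had negative changes throughout (median -1.33), and *ATG1* and *ATG31* were those that did not pass (log2 -0.30, SE 0.29, adjusted p = 0.546, and log2 -3.11, SE 1.29, adjusted p = 0.0969 on 4 and 3 against 0 and 1 disome counts).

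*ATG17* went from 37 and 50 disome counts in *ncs2*Δ*elp6*Δ to 13 and 26 in the triple mutant (40.3 and 40.8 against 10.1 and 18.9 normalised CPM). The enrichment changed by -1.46 (SE 0.39, adjusted p = 0.00661) and the disome counts alone by -1.46 (SE 0.31, adjusted p = 0.00127). *ATG11* went from 60 and 84 to 52 and 60 counts (65.4 and 68.6 against 40.3 and 43.6 normalised CPM), with an enrichment change of -1.06 (SE 0.24, adjusted p = 0.00175), and *ATG13* from 32 and 41 to 16 and 26 counts (34.9 and 33.5 against 12.4 and 18.9 normalised CPM), with -1.20 (SE 0.34, adjusted p = 0.012). Both groups of disome libraries were apart in each of these genes, and the disome counts alone passed their own test too (*ATG11* log2 -0.66, adjusted p = 0.0145; *ATG13* log2 -1.10, adjusted p = 0.0109). The disome gains of *ATG17* and *ATG11* in *ncs2*Δ*elp6*Δ against wild type rest on the same *ncs2*Δ*elp6*Δ libraries. These gains and falls are therefore not independent.

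*ATG26* moved the other way, from 6 and 7 disome counts to 15 and 29 (6.54 and 5.71 against 11.6 and 21.1 normalised CPM). Its disome counts alone rose (log2 1.43, SE 0.49, adjusted p = 0.0361), and its enrichment did not pass (log2 1.08, SE 0.47, adjusted p = 0.116).

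*ATG29* had 10 and 9 disome counts in *ncs2*Δ*elp6*Δ and 4 and 4 in the triple mutant (log2 enrichment -1.92, SE 0.64, adjusted p = 0.032), too few for a test of the disome counts alone. Of the 4 genes, *ATG11* was called in every fit without a library. The call of *ATG17* was lost without triple mutant monosome replicate 2 (log2 -0.81, adjusted p = 0.312) or disome replicate 1 (log2 -1.09, adjusted p = 0.0724), that of *ATG13* without triple mutant monosome replicate 1, *ncs2*Δ*elp6*Δ disome replicate 2 or triple mutant disome replicate 1 (log2 -1.22 to -0.94, adjusted p = 0.0566 to 0.0872), and that of *ATG29* without any of 5 libraries (triple mutant monosome replicate 1 and each of the 4 disome libraries; log2 -2.20 to -1.65, adjusted p = 0.053 to 0.163).

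In *hel2*Δ against wild type, 3 of 29 genes were depleted and none enriched, beside 2.80% and 2.40% of all 4999 genes, with a median of -0.25 over the *ATG* genes and -0.02 over all genes. *ATG33* went from 30 and 33 to 12 and 32 disome counts (19.5 and 23.1 against 11.7 and 14.2 normalised CPM; log2 enrichment -1.39, SE 0.38, adjusted p = 0.0402), while its monosome level rose. *ATG21*, a PI3P-binding homologue of *ATG18*, went from 43 and 36 to 19 and 29 counts (27.9 and 25.2 against 18.6 and 12.9 normalised CPM; log2 enrichment -1.32, SE 0.35, adjusted p = 0.0354). For both genes the disome counts alone missed the threshold (*ATG33* log2 -0.67, adjusted p = 0.537; *ATG21* log2 -0.80, adjusted p = 0.409).

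*ATG13* had a similar enrichment change, -1.43 (SE 0.41), with an adjusted p of 0.0518, on 80 and 32 wild-type against 18 and 59 *hel2*Δ disome counts. As normalised CPM this was 52.0 and 22.4 against 17.6 and 26.2, so that the disome groups overlapped. The changes in enrichment on loss of *HEL2* with and without *NCS2* and *ELP6* came from comparisons that share no library. They had the same sign in 21 of 28 genes (75%) and in 56.68% of all genes. Pearson r was -0.05 and Spearman rho 0.17 across the 28 genes (0.17 and 0.19 across all genes). No *ATG* gene was called in both. Of all 4931 genes, 40 were called higher in both, 59 lower in both and 14 in opposite directions. The calls in *hel2*Δ were lost in most fits without a library, for *ATG33* in 7 (log2 -1.59 to -1.26, adjusted p = 0.0709 to 0.181) and for *ATG21* in 6 (log2 -1.40 to -1.01, adjusted p = 0.081 to 0.225). No *ATG* gene was called without *hel2*Δ monosome replicate 1 or 2 or *hel2*Δ disome replicate 2, and 1 was called without wild type monosome replicate 1 or 2.

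*ATG5* (chromosome XVI, 271310 to 272194) had the largest enrichment changes among the genes called, on very low counts. Its disome counts were 8 and 10 in the wild type, 2 and 0 in *hel2*Δ, 2 and 1 in *ncs2*Δ*elp6*Δ, and 8 and 5 in the triple mutant. They were thus higher in the wild type and the triple mutant than in the other strains. Scaled to library size, *hel2*Δ had 0.107 times the wild-type disome rate (95% exact interval 0.012 to 0.445, 2 against 18 counts), *ncs2*Δ*elp6*Δ 0.288 times (0.0543 to 0.986, 3 against 18 counts), and the triple mutant 9.54 times the *hel2*Δ rate (2.16 to 87.1, 13 against 2 counts). Against *ncs2*Δ*elp6*Δ the triple mutant had 3.54 times the rate (0.972 to 19.35, 13 against 3 counts), an interval that includes 1. These intervals cover counting error only.

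The fitted enrichment of *ATG5* was -4.32 in *hel2*Δ against wild type (SE 0.97, adjusted p = 0.0169) and -2.29 in *ncs2*Δ*elp6*Δ against wild type (SE 0.78, adjusted p = 0.0482). It was 2.87 in the triple mutant against *hel2*Δ (SE 1.04, adjusted p = 0.0879). The first call was lost without *hel2*Δ monosome replicate 1 or 2 or *hel2*Δ disome replicate 2 (log2 -4.54 to -2.71, adjusted p = 0.0691 to 0.148), and the second in 7 of 10 fits without a library (wild type monosome 1 or 2, *ncs2*Δ*elp6*Δ monosome 1 or 2, wild type disome 2, *ncs2*Δ*elp6*Δ disome 1 or 2; log2 -3.05 to -1.67, adjusted p = 0.0601 to 0.283).

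The difference of the *HEL2* effect on disome enrichment between the backgrounds was tested after the data had been seen. *ATG5* was the 1 of 29 *ATG* genes that passed (log2 5.23, SE 1.33, adjusted p = 0.022), beside 1.54% of 5114 genes with a higher and 1.86% with a lower value. For *ATG17*, whose enrichment changed by 0.07 (SE 0.35, adjusted p = 0.937) in *hel2*Δ against wild type, the difference was -1.55 (SE 0.54) and did not pass (adjusted p = 0.101). The difference of *ATG5* was lost without *hel2*Δ disome replicate 2 (log2 3.62, adjusted p = 0.108), *ncs2*Δ*elp6*Δ disome replicate 2 (log2 4.62, adjusted p = 0.0963) or triple mutant disome replicate 1 (log2 4.80, adjusted p = 0.0887).

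**Figure D5:**
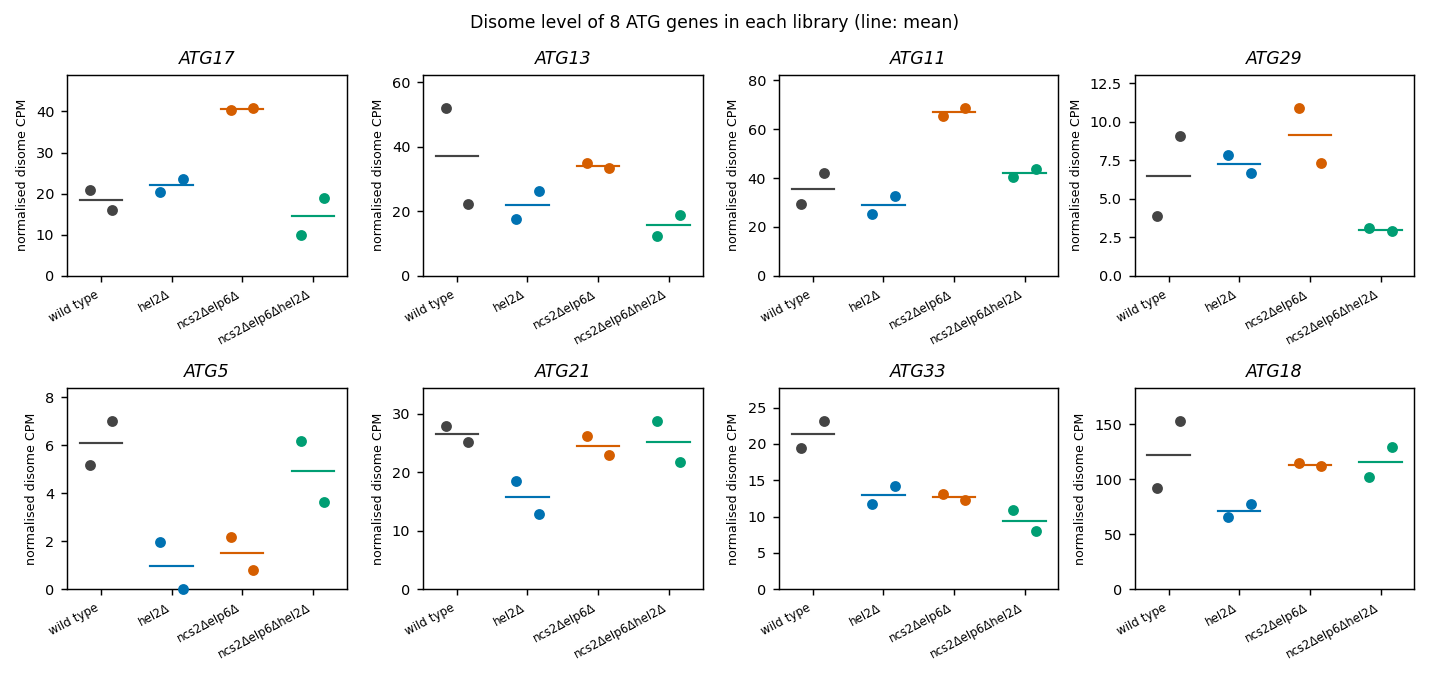
Normalised disome CPM of 8 *ATG* genes in the 2 disome libraries of each strain (points) with the mean (line). *ATG17* is near 40 in both *ncs2*Δ*elp6*Δ libraries and below 24 in all others, and *ATG5* is highest in the wild type and the triple mutant, on at most 10 counts a library.

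Among the ATG genes under other symbols, *YLR312C* (*ATG39*), the receptor for autophagy of the nuclear envelope, had 8, 8 and 3 monosome counts in the wild type, 4 and 4 in *hel2*Δ, 70, 65 and 31 in *ncs2*Δ*elp6*Δ, and 8 and 19 in the triple mutant. With so few counts in the controls it entered the test through the groups where it is high. Its log2 values, 2.27 (SE 0.37) in *ncs2*Δ*elp6*Δ against wild type and 1.46 (SE 0.53) in the triple mutant against *hel2*Δ, are therefore not read as a result. *ICY2* (*ATG41*), whose product interacts with Atg9, rose in the same comparisons (log2 0.56 and 0.92), and *VPS30* (*ATG6*), a PI 3-kinase subunit, fell in both (log2 -0.55 and -0.64). *YBR139W* (*ATG42*), a vacuolar carboxypeptidase, rose on loss of *HEL2* in both backgrounds (log2 1.01, SE 0.13, and 0.73, SE 0.10). In all, 2 of the 7 tested rose (*YLR312C* counted among them) and 2 fell in *ncs2*Δ*elp6*Δ, which is close to the 26.6% and 26.4% of all genes.

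Among transcription factors known to act on *ATG* genes, 5 of 10 rose and none fell in *ncs2*Δ*elp6*Δ against wild type, and 4 of 10 rose and none fell in the triple mutant against *hel2*Δ, beside the 26.6% and 26.4%, and the 22.5% and 21.7%, of all genes. *GCN4*, the activator of amino acid biosynthesis, rose most in the former (log2 2.22, SE 0.10), followed by *MSN4*, a stress activator (log2 1.55), and *GAT1*, a nitrogen-regulated GATA factor (log2 0.91). Of the vacuolar hydrolases and Cvt cargo, 3 of 7 rose and 1 fell in *ncs2*Δ*elp6*Δ, beside the same 26.6% and 26.4%. *PRB1*, the vacuolar protease B, rose (log2 1.51, SE 0.11), and it also rose in the triple mutant against *hel2*Δ (log2 0.89, SE 0.09). It fell in the triple mutant against *ncs2*Δ*elp6*Δ (log2 -0.83, SE 0.11). *APE1*, the Cvt cargo aminopeptidase I, rose in *ncs2*Δ*elp6*Δ (log2 0.47).

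For TORC1 and its inputs, 3 of 10 genes rose and 2 fell in *ncs2*Δ*elp6*Δ, 1 rose and 1 fell in the triple mutant against *hel2*Δ, and on loss of *HEL2* 3 and 2 rose and none fell. The shares of all genes were 26.6% and 26.4%, 22.5% and 21.7%, 14.7% and 17.2%, and 12.0% and 12.2% in these 4 comparisons, and nothing is read from counts this small. *KOG1*, which encodes the raptor subunit, rose in *hel2*Δ (log2 0.74) and in the triple mutant against *ncs2*Δ*elp6*Δ (log2 0.54), as did *TOR1*, the kinase (log2 0.57 and 0.66). Of the 7 genes for fusion with the vacuole, 1 rose and 1 fell in *ncs2*Δ*elp6*Δ, 2 rose in the triple mutant against *hel2*Δ, and 2 fell on loss of *HEL2* in each background. Of the 7 partners of Atg proteins, 3 rose in *hel2*Δ, among them *VPS15*, the regulatory kinase of the PI 3-kinase complex (log2 1.00), and 1 fell. None was called in the triple mutant against *ncs2*Δ*elp6*Δ. In *ncs2*Δ*elp6*Δ 2 rose and 1 fell, and in the triple mutant against *hel2*Δ 1 rose and 2 fell. The partners *VPS30* and *SNX4* also belong to the ATG genes under other symbols.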

How the data were processed

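Ribosome footprints were measured in 10 monosome and 8 disome libraries of 4 yeast strains. The authors deposited raw counts per open reading frame, not normalized. Before that they trimmed adapters (FastX toolkit), checked quality (FastQC 0.11.7), removed noncoding RNA reads (STAR 2.5.3a) and mapped unique sense-strand reads to open reading frames (Bowtie 1.2.3, sacCer3 per the labels), so reads shared by near-identical sequences are lost, which may touch the paralogous neighbours *ATG19* and *ATG34*. The annotation release is not given in the sources used here.

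Counts were tested here with edgeR 4.0.16 in R 4.3.3 (TMM, filterByExpr, robust quasi-likelihood F test, Benjamini-Hochberg over all genes tested; called at an adjusted p under 0.05). Each fit held the 2 strains compared. Disome enrichment was the interaction of library type with genotype, on genes in both tables. On simulated data with *ncs2*Δ*elp6*Δ against wild type depths, the monosome test recovered 97% of genes changed by 1 on the log2 scale (5261 genes), and the enrichment test 53% (5358 genes). Of the genes called there, 3.9% and 6.2% were false. These values are over all genes tested, whereas most *ATG* genes have lower levels, and the shallower strains without *HEL2* were not simulated. Normalised CPM were computed with TMM over all libraries of a type. Without TMM the monosome log2 ratios of all genes had medians of 0.27, 0.13, 0.27 and 0.15 (*ncs2*Δ*elp6*Δ against wild type, triple mutant against *hel2*Δ, *hel2*Δ against wild type, triple mutant against *ncs2*Δ*elp6*Δ), and those of the *ATG* genes 0.36, 0.11, 0.50 and 0.31.

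Named with values were, per comparison, up to 4 called genes in each direction by size (for monosomes, with at least 20 counts in a library), and *ATG1*, *ATG8*, *ATG9*, *ATG13* and *ATG17* in any case; the disome counts of *ATG18* and the values of *ATG31* were chosen after their values were seen. The members and lists were chosen with earlier results of these data known. Gene names and positions are from RefSeq R64, which matched all 31 members. Alternatives were DESeq2 1.42.0 (size factors, Wald and likelihood-ratio tests), no filter, thinning, all strains in 1 fit, the replicate number as a block, and leaving out each library. Replicate numbers did not pair the samples.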

Additional observations from a re-analysis of the deposited data

Results flagged for a closer look

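The disome enrichment of *ATG5* responded to loss of *HEL2* differently in the 2 backgrounds, and the difference itself passed the test (log2 5.23, SE 1.33, adjusted p = 0.022 in edgeR over 5114 genes; this contrast was chosen after seeing the data). The disome counts behind it were 8 and 10 in the wild type, 2 and 0 in *hel2*Δ, 2 and 1 in *ncs2*Δ*elp6*Δ, and 8 and 5 in the triple mutant. The call was lost without *hel2*Δ disome replicate 2 (3.62), *ncs2*Δ*elp6*Δ disome replicate 2 (4.62) or triple mutant disome replicate 1 (4.80), and with DESeq2's Wald test no *ATG* gene was called.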

How the results depend on the processing

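No result changed direction under the alternatives that were run. The number of *ATG* genes called moved by over 1.5 times in these cases. For monosomes it was 1 in place of 6 with the DESeq2 Wald test in the triple mutant against *hel2*Δ (all genes 1255 against 2220) and 4 in place of 9 after thinning in *hel2*Δ against wild type. For disome enrichment it was 1 in place of 2 with no filter in *ncs2*Δ*elp6*Δ against wild type, 1 in place of 0 with no filter or with all 4 strains in 1 fit in the triple mutant against *hel2*Δ, and 0 in place of 1 with the DESeq2 Wald test for the difference of the *HEL2* effect. Over all genes, enrichment calls were 518 with all strains in 1 fit against 260 in *hel2*Δ against wild type, and 259 with DESeq2 against 457 in the triple mutant against *hel2*Δ. The cause was not tested.

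Same-numbered replicates did not deviate together (mean correlations -0.15 to 0.09). With the replicate number as a block, 1 *ATG* gene in place of 3 was called for monosomes of the triple mutant against *ncs2*Δ*elp6*Δ (*ATG7* and *ATG27* lost, adjusted p = 0.0724 and 0.0852), and 1 in place of 2 for enrichment in *ncs2*Δ*elp6*Δ against wild type (*ATG5* lost, adjusted p = 0.0787), where crossing the numbers (chosen after seeing the data, since the correlation was -0.15) also gave 1. The block left the other counts within 1.5 times, and over all genes moved *hel2*Δ against wild type monosome calls from 1666 to 2320.

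Leaving out 1 library at a time, the monosome counts ranged from 8 to 14 in *ncs2*Δ*elp6*Δ against wild type, 4 to 5 in the triple mutant against *hel2*Δ, 2 to 9 in *hel2*Δ against wild type, 0 to 3 in the triple mutant against *ncs2*Δ*elp6*Δ, and 0 to 3 for the difference of the *HEL2* effect. The enrichment counts ranged from 1 to 3, 0 to 3, 0 to 4 and 2 to 5 in the same order, and 0 to 2 for the difference. How many of all genes were called in these fits is not given here, so no excess over all genes is read from the ranges. Low disome counts limit the enrichment tests.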
